A study of Mus musculus with 64 samples.

Results

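MHC class I presentation was followed through 9 genes chosen by name for their place in that pathway: the heavy chain genes H2-D1, H2-K1 and H2-Q7, the light chain gene B2m, the peptide transport and loading genes Tap1, Tap2 and Tapbp, and the immunoproteasome genes Psmb8 and Psmb9. All 9 were among the 5647 genes of the expression table. The choice was made with earlier results known: the authors list H2-D1, H2-K1, H2-Q7 and Tap1 among their genes rising with age in these same data. Counts of members called with age are therefore not independent evidence of a rise. The samples were microglia, the resident macrophages of the brain, sorted as live CD11b+ CD45low cells from wild-type C57BL/6J mice, and measured by bulk RNA sequencing in 64 libraries of 17 groups. Female mice given LPS, a component of the bacterial cell wall that provokes systemic inflammation, were sampled at 3, 14 and 24 months (n = 3, 5 and 3). They were killed 2 h after an intraperitoneal injection, so the LPS values below describe an early time alone. Male mice given PBS, the vehicle, were sampled at 3, 6, 9 and 12 months and at 16, 19 and 24 months (n = 4, 4, 4, 2, 4, 5 and 4). Female mice given PBS were sampled at 3, 6, 9 and 12 months and at 14, 16 and 24 months (n = 4, 2, 3, 4, 5, 5 and 3), and those at 3, 14 and 24 months were also the controls of the LPS groups. Values are FPKM, fragments scaled to transcript length and library size, after the authors' batch adjustment and, for nearly all values, rounding to whole numbers. The column totals ran between 408457 and 554459, and the depth in reads is unknown.

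Class I molecules display short peptides from proteins made inside the cell to CD8 T cells, and nearly every nucleated cell carries them. Proteasomes cut the proteins, the TAP transporter carries the peptides into the endoplasmic reticulum, tapasin and its partner chaperones help load them, and the loaded heavy chain leaves for the cell surface only with β2-microglobulin bound. Interferons raise most genes of the pathway in many cell types, and microglia of the resting young brain are known for little class I protein at their surface.

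The 3 heavy chain genes share a block of sequence with the same motifs near their start sites, and it is shown here because these genes were the members called higher at 24 than at 3 months in both sexes. In the RefSeq promoter windows of GRCm38.p6 (mm10), which run from 250 bases before to 50 bases after a gene's start and held 8 of the 9 members, each heavy chain gene had the same order of 3 motifs on chromosome 17. Capitals mark, from 5′ to 3′, the κB motif GGGGATTCC, an interferon-type motif (GAANNGAAA, read on the other strand) and the Y box (CTGATTGG, read on the other strand as CCAATCAG). The stretches lie at chr17:35262913-35263058 on the plus strand (H2-D1), chr17:34000322-34000468 on the minus strand (H2-K1) and chr17:35439012-35439156 on the plus strand (H2-Q7).
H2-D1: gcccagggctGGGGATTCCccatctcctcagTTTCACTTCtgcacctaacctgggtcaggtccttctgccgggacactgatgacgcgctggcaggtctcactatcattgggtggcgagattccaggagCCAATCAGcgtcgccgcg
H2-K1: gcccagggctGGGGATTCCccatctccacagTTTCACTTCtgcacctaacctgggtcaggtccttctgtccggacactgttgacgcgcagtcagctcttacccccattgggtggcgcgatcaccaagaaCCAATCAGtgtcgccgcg
H2-Q7: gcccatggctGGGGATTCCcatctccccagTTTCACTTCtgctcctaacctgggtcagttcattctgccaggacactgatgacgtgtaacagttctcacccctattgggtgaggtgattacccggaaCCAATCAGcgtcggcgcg
The stretches of H2-D1 and H2-K1 were identical at 130 of 147 aligned positions (88.4%), those of H2-D1 and H2-Q7 at 84.4% and those of H2-K1 and H2-Q7 at 83.7%. The κB motif was found on either strand in 0.25% of 32851 promoter windows, the interferon-type motif in 7.52% and the Y box in 4.1%. No overlap between the 3 motifs occurred in these stretches. Counted from the RefSeq start, the Y box began at -53 in H2-D1, at 8 or -6 from the 2 starts of H2-K1 and at -16 in H2-Q7. The gene positions given further on are those of GENCODE, whose starts differ: that of H2-D1 lies before the whole stretch and that of H2-K1 lies inside it. A match is a description of the letters and not a measured binding site.

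Tap1 and Psmb9 lie head to head with overlapping promoter windows, part of which is shown because their values are compared further on. Their windows have 275 bases in common (chr17:34187306-34187580), and a single Y box lies in both, within the stretch chr17:34187324-34187351, read here on the strand of each gene with the Y box in capitals.
Tap1: gctcggctttCCAATCAGcggctgcgcg
Psmb9: cgcgcagccgCTGATTGGaaagccgagc
The windows of B2m, Tapbp and Psmb8 held none of the 3 motifs in these letters. Other spellings of such sites were not searched, so their absence from these windows is not shown. Apart from B2m (chr2:122147686-122153083, the plus strand), the members lie on chromosome 17 in the mouse MHC. Psmb9, Tap1, Psmb8 and Tap2 sit side by side within 34335 bases, where the annotated starts of Psmb9 and Tap1 overlap by 212 bases on opposite strands. No source used here says whether the counting used strand, so reads from that overlap cannot be assigned. Tapbp (chr17:33915899-33929292) lies close to H2-K1 (chr17:33996017-34000347), and H2-D1 (chr17:35262730-35267499) lies close to H2-Q7 (chr17:35439155-35443773).

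Near-identical copies limit one member in particular. Of the 50-base words in the H2-Q7 transcripts, 34.9% also occur in transcripts of other genes, led by H2-Q5 (17.4%) and H2-Q6 (17.02%), so the value of H2-Q7 is uncertain as a measure of that gene alone. The share was 13.9% for H2-D1, 6.87% for H2-K1, 3.50% for Tapbp, 0.834% for Tap1 and 0.708% for Tap2. B2m, Psmb8 and Psmb9 had no such word.

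On the per-length FPKM scale the pathway was unequally expressed. B2m averaged 3901 over the 64 libraries and ranked 13 of 5647 genes. H2-D1 followed at 902 (rank 57), H2-K1 at 546 (rank 87), Tapbp, which encodes tapasin, at 301 (rank 193), Psmb8 at 185 (rank 349) and Psmb9 at 78.6 (rank 919). The transporter genes were low, with Tap2 at 37.1 (rank 2061) and Tap1 at 28.3 (rank 2625), and H2-Q7 was lowest at 15.2 (rank 4311). No member was at 0 in any library. Among the 53 PBS libraries, H2-Q7 varied most, 18.0-fold between its lowest and highest library, and Tapbp least, 2.16-fold. Tap1 varied 6.0-fold, Tap2 4.4-fold, Psmb9 4.38-fold, H2-D1 3.66-fold, Psmb8 2.54-fold, H2-K1 2.53-fold and B2m 2.27-fold.

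Libraries of the same group had a mean correlation of 0.881 to 0.974 with each other across all genes. Of the 10 microglia markers listed all were measured, and their summed level was 14584 to 26494 FPKM over all libraries, with its course by age and LPS given beside the other markers. In all, 3 libraries held more than 20 values between 0 and 1, against at most 20 in each of the others, and stood apart in that respect: LPS replicate 5 at 14 months, LPS replicate 2 at 24 months and female PBS replicate 3 at 24 months. Calls and signs that change without them are given beside the values. All differences below are log2 fold changes on the log2(value + 1) scale with their standard errors from limma, and a gene counted as higher or lower when its Benjamini-Hochberg adjusted p over all genes was under 0.05 and its fold over 1.5. These samples are bulk sorted cells, so more cells of a type and more RNA per cell cannot be told apart.

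In ageing females, the heavy chain genes and Psmb8 rose between 3 and 24 months, while B2m, the transporter genes, Tapbp and Psmb9 did not pass the test. H2-Q7 was 1.86 ± 0.30 higher at 24 than at 3 months on the log2 scale (limma adjusted p = 0.00185), H2-D1 1.18 ± 0.20 (adjusted p = 0.00263), H2-K1 0.70 ± 0.16 (adjusted p = 0.023) and Psmb8 0.70 ± 0.18 (adjusted p = 0.0362). That made 4 of 9 members higher and none lower, against 1.56% of all 5647 genes called higher in this comparison. The median log2 fold change was 0.67 over the 9 members and -0.02 over all genes.

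H2-D1, a classical heavy chain gene, had 1605, 1499 and 1181 FPKM in the 3 females of 24 months, against 708, 519, 639 and 646 FPKM in the 4 females of 3 months. Every old female lay above every young one by a wide gap. The means were 628 ± 79.0, 738 ± 85.6, 895 ± 157, 896 ± 172, 912 ± 201, 1014 ± 218 and 1428 ± 221 at the 7 ages from 3 to 24 months (SD, n = 4, 2, 3, 4, 5, 5 and 3). The largest step was the last, between 16 and 24 months, and neighbouring ages overlapped throughout, so the order of adjacent ages was not separable mouse by mouse. Against 3 months, H2-D1 also passed at 16 months, by 0.67 ± 0.18 (limma adjusted p = 0.0159).

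H2-K1, the second classical heavy chain gene measured, had 750, 717 and 647 FPKM at 24 months, against 432, 399, 481 and 420 FPKM at 3 months. The groups did not overlap. Its means were 433 ± 34.8, 412 ± 73.5, 447 ± 77.8, 616 ± 54.3, 622 ± 64.4, 573 ± 115 and 705 ± 52.6 at the 7 ages (SD, n as above). The step lay between 9 and 12 months, the only neighbouring ages of this gene whose females did not overlap. At 12 and 14 months it was 0.51 ± 0.15 and 0.52 ± 0.14 above 3 months, with limma adjusted p of 0.0333 and 0.0404 but a fold under the limit of 1.5. The call at 24 months was lost without replicate 1, 2 or 4 of 3 months or replicate 1 or 2 of 24 months (the adjusted p over all 26 left-out fits ran from 0.00592 to 0.130).

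H2-Q7, a nonclassical heavy chain gene of the Q region, had 17, 32 and 18 FPKM at 24 months, against 5, 7, 4 and 5 FPKM at 3 months. All 3 old females were above all 4 young ones, at a low level. The means were 5.25 ± 1.26, 6.5 ± 2.12, 14.3 ± 5.13, 16.0 ± 2.45, 14.8 ± 4.76, 21.6 ± 6.62 and 22.3 ± 8.39 at the 7 ages. The largest step came between 6 and 9 months, where the females did not overlap. H2-Q7 was the member that passed at every age from 9 months on, by 1.26 ± 0.30, 1.45 ± 0.28, 1.31 ± 0.27 and 1.81 ± 0.27 at 9, 12, 14 and 16 months (limma adjusted p = 0.029, 0.00432, 0.00654 and 0.00014). The authors dropped genes of low average FPKM, and the lowest gene mean kept was 10. H2-Q7 averaged less than that at 3 and 6 months in both sexes. It was therefore kept through the groups where it was high. That filter favours its rises with age and under LPS at 3 months, and the counts that include them.

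B2m, whose product is the light chain of every class I molecule, had 3896, 5673 and 4138 FPKM at 24 months, against 3202, 3520, 3531 and 3845 FPKM at 3 months. The ranges did not overlap, yet the lowest old female stood only just above the highest young one, and the difference of 0.36 ± 0.14 did not pass (limma adjusted p = 0.141). The ratio of B2m to the sum of the 3 heavy chain genes was 2.14 ± 0.45 at 24 months and 3.33 ± 0.45 at 3 months (SD, n = 3 and 4, ranges 1.64 to 2.52 and 2.8 to 3.81).

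Tap1, a subunit of the peptide transporter, had 31, 23 and 15 FPKM in females of 24 months, against 16, 17, 16 and 22 FPKM at 3 months. The old females spanned the young ones (difference 0.31 ± 0.31, limma adjusted p = 0.632). Its highest mean was at 9 months, 38.3 ± 14.6, where it was 1.00 ± 0.31 above 3 months without passing (adjusted p = 0.0724). Tap2, its partner subunit, had 65, 46 and 56 FPKM at 24 months, against 46, 34, 27 and 33 FPKM at 3 months. A single old female equalled the highest young one, and the difference of 0.67 ± 0.25 did not pass (adjusted p = 0.133). The females of 24 months lay above all 5 of 16 months, which had 22 to 36 FPKM. Tapbp was level, at 265 to 346 FPKM in the 3 females of 24 months and 238 to 298 FPKM in the 4 of 3 months, with a difference of 0.17 ± 0.17 (adjusted p = 0.643).

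Psmb8, the immunoproteasome subunit that replaces Psmb5 of the standard proteasome, had 253, 287 and 243 FPKM at 24 months, against 151, 147, 184 and 162 FPKM at 3 months. The groups were well apart. Its means stayed between 148 ± 22.03 and 167 ± 42.5 up to 14 months and stood at 222 ± 20.5 and 261 ± 23.1 at 16 and 24 months. At 16 months all 5 females were above all 4 of 3 months, but the difference of 0.46 ± 0.15 fell short (limma adjusted p = 0.0534). The call at 24 months was a narrow one: without the 3 libraries that stood apart the adjusted p was 0.0543, and it was also lost without replicate 1, 2 or 4 of 3 months or any 1 replicate of 24 months (adjusted p up to 0.127). Psmb5 did not pass at 24 months (-0.29 ± 0.19, adjusted p = 0.434), and the ratio of Psmb8 to Psmb5 was 4.87 ± 0.98 at 24 months and 2.42 ± 0.27 at 3 months, with no overlap (ranges 3.99 to 5.93 and 2.1 to 2.67). Psmb9, which replaces Psmb6, had 108, 127 and 85 FPKM at 24 months, against 85, 58, 89 and 81 FPKM at 3 months, and overlapped (0.44 ± 0.22, adjusted p = 0.286).

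Taking every later age against 3 months, 9 of 54 tests on the members passed in females, all higher, against 1.27% of 33882 tests over all genes. Those 9 were the 5 of H2-Q7, the 2 of H2-D1 and 1 each of H2-K1 and Psmb8. In the test for any difference across the 7 ages, H2-D1, H2-K1, H2-Q7 and Psmb8 passed, 4 of 9 against 14.8% of all genes in either direction. B2m had an adjusted p of 0.0307 there but no age with a fold over 1.5. A straight line in age gave the same 4 genes, against 3.26% of all genes rising: the fitted rise of H2-Q7 over 21 months was 2.01 ± 0.31, that of H2-D1 was 1.08 ± 0.18, that of H2-K1 was 0.79 ± 0.16 and that of Psmb8 was 0.77 ± 0.18 (limma adjusted p = 0.000312, 0.000424, 0.0042 and 0.0119). The median of all genes had a log2 fold change of -0.16 to -0.19 against 3 months at the ages from 6 to 16 months, so members at those ages stand higher by that amount relative to the typical gene.

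**Figure D1:**
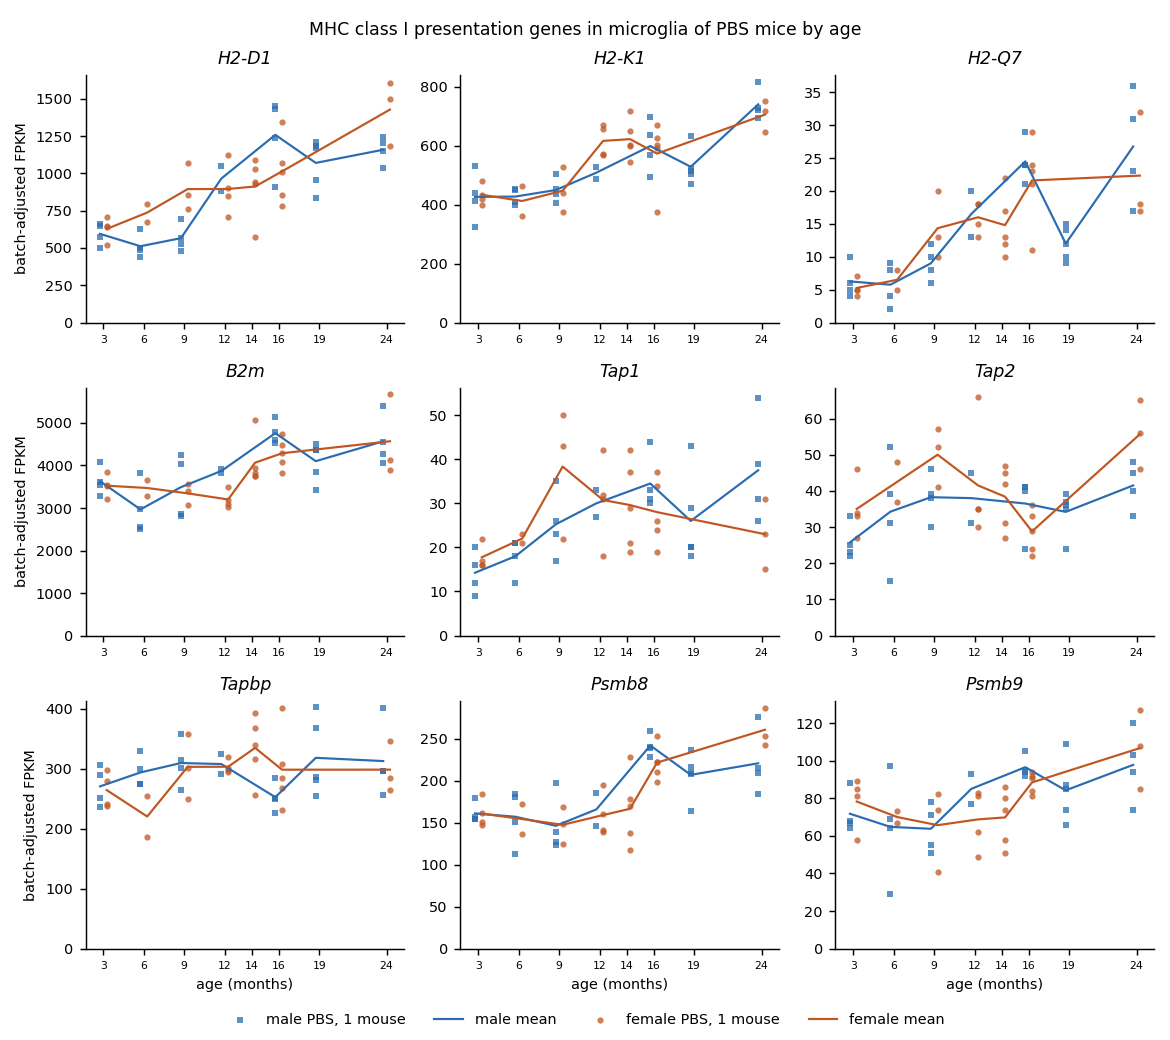
FPKM (authors' batch-adjusted values, linear axes) of the 9 members by age in months in PBS mice, 1 panel per gene, with males as squares left of females as circles and lines through the group means. H2-D1, H2-K1, H2-Q7 and Psmb8 climb in both sexes (H2-Q7 to 26.8 in males and 22.3 in females at 24 months, against 6.25 and 5.25 at 3 months), Tap1 climbs in males, and Tapbp stays level.

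In ageing males, the same 3 heavy chain genes rose between 3 and 24 months, and Tap1 rose with them. H2-Q7 was 1.95 ± 0.31 higher at 24 than at 3 months (limma adjusted p = 0.00052), Tap1 1.34 ± 0.27 (adjusted p = 0.00303), H2-D1 0.97 ± 0.16 (adjusted p = 0.00061) and H2-K1 0.81 ± 0.14 (adjusted p = 0.000681). These were 4 of 9 members, with none lower, against 2.73% of all genes called higher. The median was 0.67 over the members and 0.10 over all genes.

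H2-D1 had 1149, 1246, 1204 and 1036 FPKM in the 4 males of 24 months, against 650, 659, 572 and 498 FPKM at 3 months. The groups were far apart. The means ran 595 ± 75.4, 512 ± 80.8, 566 ± 92.1, 966 ± 119, 1259 ± 250, 1071 ± 166 and 1159 ± 91.0 at the 7 ages from 3 to 24 months (SD, n = 4, 4, 4, 2, 4, 5 and 4). Up to 9 months no mean exceeded that of 3 months, and the 12-month males lay above all of the 9-month males. H2-D1 passed at 16 and 19 months, by 1.07 ± 0.16 and 0.84 ± 0.15 (limma adjusted p = 3.75e-05 and 0.00084).

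H2-K1 had 816, 728, 720 and 694 FPKM at 24 months, against 438, 529, 323 and 413 FPKM at 3 months. The groups did not overlap. The means were 426 ± 84.7, 427 ± 28.2, 449 ± 41.6, 508 ± 28.3, 598 ± 88.0, 528 ± 62.2 and 739.5 ± 53.03 at the 7 ages, and the 24-month males also lay above all 5 of 19 months, which had 468 to 633 FPKM. At 16 months H2-K1 was 0.50 ± 0.14 above 3 months, with a limma adjusted p of 0.024 and a fold under the limit. H2-Q7 had 36, 31, 23 and 17 FPKM at 24 months, against 4, 5, 10 and 6 FPKM at 3 months. Its course was not steady: the means were 16.5 ± 4.95, 24.5 ± 3.32, 12.0 ± 2.55 and 26.8 ± 8.42 at 12, 16, 19 and 24 months, and none of these neighbouring ages overlapped. H2-Q7 passed at 16 months (1.87 ± 0.31, limma adjusted p = 0.000127) and not at 19 months (0.88 ± 0.29, adjusted p = 0.118).

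Tap1 had 39, 54, 26 and 31 FPKM at 24 months, against 20, 12, 16 and 9 FPKM at 3 months. The lowest old male was above the highest young one. Its means were 14.3 ± 4.79, 18.0 ± 4.24, 25.3 ± 7.50, 30 ± 4.24, 34.5 ± 6.45, 26 ± 10.4 and 37.5 ± 12.2 at the 7 ages, and it passed at 16 months, by 1.26 ± 0.27 (limma adjusted p = 0.00288). Tap2 had 33, 45, 40 and 48 FPKM at 24 months, against 33, 23, 22 and 25 FPKM at 3 months. A single value was shared between the groups, and the difference of 0.67 ± 0.26 did not pass (adjusted p = 0.198). Tapbp did not pass either, with 257 to 402 FPKM at 24 months and 236 to 306 FPKM at 3 months (0.20 ± 0.15, adjusted p = 0.656).

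Psmb8 had 276, 215, 209 and 184 FPKM in males of 24 months, against 154, 180, 154 and 157 FPKM at 3 months. All old males were above all young ones, but the difference of 0.44 ± 0.17 did not pass (limma adjusted p = 0.195). At 16 months Psmb8 had 229, 239, 241 and 260 FPKM and passed, by 0.59 ± 0.17 (adjusted p = 0.0287). Psmb9 had 120, 103, 94 and 74 FPKM at 24 months, against 68, 88, 67 and 64 FPKM at 3 months, and overlapped (0.43 ± 0.24, adjusted p = 0.453). B2m had 5402, 4543, 4279 and 4048 FPKM at 24 months, against 3275, 4092, 3552 and 3605 FPKM at 3 months, with a slight overlap (0.33 ± 0.15, adjusted p = 0.32). The ratio of B2m to the heavy chain genes was 2.37 ± 0.22 at 24 months and 3.57 ± 0.45 at 3 months (SD, n = 4 each, ranges 2.2 to 2.7 and 3.0 to 3.93). That of Psmb8 to Psmb5 overlapped, at 3.25 ± 0.45 and 3.09 ± 0.60.

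Over every later age against 3 months, 9 of 54 tests on the members passed in males, all higher and none before 16 months, against 1.8% of tests over all genes. Across the 7 ages H2-D1, H2-K1, H2-Q7, Tap1 and Psmb8 passed, 5 of 9 against 8.36% of all genes. The line in age called 6 members, against 6.62% of all genes rising: H2-Q7 by 2.00 ± 0.32 over 21 months, H2-D1 by 1.33 ± 0.18, Tap1 by 1.14 ± 0.24, H2-K1 by 0.75 ± 0.12, Psmb8 by 0.63 ± 0.15 and Psmb9 by 0.62 ± 0.20 (limma adjusted p = 0.000141, 4.07e-05, 0.00158, 0.000119, 0.00531 and 0.0383). B2m had a fitted change of 0.52 ± 0.14 (adjusted p = 0.0112), under the fold limit. On the line 3 members passed with libraries scaled to equal totals (H2-D1, H2-Q7 and Tap1), and none in the males whose libraries held no value between 0 and 1. Those males were only replicates 1 and 2 at 3 months, none at 6 or 9 months and all of 24 months, so that fit had few young mice. In those males H2-Q7 was the 1 member still called at 24 against 3 months, while H2-D1 (0.82, adjusted p = 0.065), H2-K1 (0.62, adjusted p = 0.0885) and Tap1 (1.17, adjusted p = 0.116) kept their sign.

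Markers of other cells moved with age beside these genes. Of 12 T and NK cell markers listed, 4 were in the table after the authors' filter on average FPKM (Cd3g, Nkg7, Ccl5 and Ms4a4b). All 4 rose between 3 and 24 months in both sexes. At 3 months Cd3g averaged 4.0 and 6.0 FPKM and Ms4a4b 7.0 and 6.0 FPKM in males and females, under the lowest gene mean kept of 10. Both were thus kept through groups where they were high, so that all 4 rose is partly fixed by the filter. Their summed level was 205 to 507 FPKM in males of 24 months and 48 to 78 FPKM at 3 months, and 249 to 376 FPKM in females of 24 months and 48 to 57 FPKM at 3 months. Ccl5, which macrophages also make, averaged 214 ± 94.0 FPKM in males of 24 months and was the largest part of their sum. In females of 24 months it averaged 77.3 ± 12.7 FPKM, and Nkg7 more, 128 ± 27.1 FPKM. Cd3g, a chain of the T cell receptor complex, averaged 23.5 ± 13.1 FPKM in males of 24 months and 4.0 ± 2.16 FPKM at 3 months, and 40.3 ± 15.9 FPKM in females of 24 months and 6.0 ± 2.16 FPKM at 3 months. T cells also express class I genes, and the study found some T and NK cells in its single-cell data of females sorted by the same gate. Across the 53 PBS libraries the sum of these markers had a Pearson r of 0.79 with H2-Q7, 0.76 with H2-K1, 0.72 with H2-D1, 0.57 with Tap1 and 0.08 with Tap2, as a description of libraries that share ages. At 9 months, where H2-Q7 had passed in females, the sum was 31.3 to 100 FPKM. The part of these cells in the rise of the class I genes was not tested.

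Other lists moved with age as well. The sum of 12 neutrophil markers was 5558 to 10403 FPKM in males of 24 months and 2709 to 4608 FPKM at 3 months, with 7 of 12 higher, and 3142 to 8322 FPKM in females of 24 months and 6853 to 18512 FPKM at 3 months, with 2 lower. Monocyte markers were higher in 5 of 8 in males of 24 months and 0 of 8 in females. Of 7 B and plasma cell markers 2 were measured (Cd79b and Jchain), and their sum had an r of 0.61 with Psmb8 over the 53 PBS libraries. Jchain averaged 102 ± 51.3 FPKM in females of 24 months and 16.1 ± 19.5 FPKM at 3 months, with an overlap (3.47, limma adjusted p = 0.0357). In males it averaged 46.0 ± 31.5 and 4.5 ± 2.38 FPKM and did not pass (2.58, adjusted p = 0.126). The filter on average FPKM bears on Jchain in males as it does on Cd3g. Cd79b passed in neither sex. Of 6 MHC class II genes measured, which present extracellular peptides to CD4 T cells, 4 rose in each sex, and their sum was 7749 to 14678 FPKM in males of 24 months and 4028 to 4769 FPKM at 3 months, and 10301 to 15935 FPKM in females of 24 months and 4574 to 6864 FPKM at 3 months. The sum of the 10 microglia markers was lower with age, at 16526 to 18587 FPKM in males of 24 months and 22444 to 24997 FPKM at 3 months, and at 17235 to 20303 FPKM in females of 24 months and 24857 to 26494 FPKM at 3 months, with 1 of 10 called lower in each sex (P2ry12 in males and Fcrls in females). Over the 53 PBS libraries its r was -0.61 with H2-D1, -0.60 with H2-Q7, -0.54 with H2-K1 and -0.47 with Tap1. Of all 5647 genes, 7 were called lower in males and 30 in females at 24 against 3 months. Of 6 oligodendrocyte markers 2 were measured (Mag and Cnp), and their sum had an r of 0.62 with Tap2, at 56 to 71 FPKM in females of 24 months and 41 to 48 FPKM at 16 months, the ages between which Tap2 stepped up. The part of these cells in the class I values was not tested.

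Other genes of the class I pathway were followed as well. Of 9 other class I and class I-like chain genes measured of 20 listed, none passed at 24 against 3 months in either sex by limma, with median log2 fold changes of 0.25 in males and 0.41 in females (0.10 and -0.02 over all genes). The nearest was H2-T22, a nonclassical chain, at 27 FPKM in females of 24 months and 14.5 FPKM at 3 months (0.86 ± 0.24, adjusted p = 0.0571), and it passed across the 7 ages in females (adjusted p = 0.0277). H2-T23, the mouse counterpart of HLA-E, rose along the line in age in males, by 0.59 ± 0.16 (adjusted p = 0.0133). Of 16 other peptide supply and loading genes none passed at 24 against 3 months in either sex, including Psmb10, the third immunoproteasome subunit (0.16 in males and 0.47 in females). The proteasome activator gene Psme1 and the transcription factor gene Irf1 rose along the line in males, by 0.61 ± 0.12 and 0.88 ± 0.22 (adjusted p = 0.00105 and 0.00968). Irf1 also rose at 16 against 3 months, by 0.94 ± 0.27 in males and 0.75 ± 0.20 in females (adjusted p = 0.03 and 0.0174), and Canx, the chaperone calnexin, passed across the 7 ages in males (adjusted p = 0.0319). Pdia3, a chaperone of the loading complex, fell at 12 against 3 months in females, to 342 FPKM against 587 FPKM (-0.78 ± 0.19, adjusted p = 0.0119). The standard proteasome genes Psmb5, Psmb6 and Psmb7 passed in no comparison.

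Interferon response genes, 24 of 28 measured, gave 4 calls in males and 1 in females at 24 against 3 months. Ifi27l2a rose in both, to 131 ± 54.3 FPKM in males of 24 months against 57.0 ± 14.3 FPKM at 3 months, and to 162 ± 37.7 FPKM in females of 24 months against 63.5 ± 18.3 FPKM at 3 months (1.12 and 1.35, limma adjusted p = 0.0247 and 0.0104). Cxcl10, Irf7 and Ifitm3 passed in males at 24 months (2.91, 1.73 and 0.94). The call counts were larger at 16 months, with 8 of 24 in males and 12 of 24 in females. Calls over all 5647 genes were also more numerous at that age, with 255 higher and 100 lower in males and 170 and 339 in females. At 24 months they were 154 and 7 in males and 88 and 30 in females.

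Male and female microglia were compared at the 6 ages both had. No member passed in any of the 54 tests by limma, against 0.328% of tests over all genes, and 2 passed at an unadjusted p under 0.05 with the fold limit, as did 2315 of the 33882 tests over all genes. Closest was H2-D1 at 9 months, with 564, 525, 694 and 480 FPKM in males and 764, 852 and 1069 FPKM in females (-0.66 ± 0.18, adjusted p = 0.05 after rounding, just over the threshold). The groups did not overlap, and this test crossed the threshold under several of the alternative settings. The other was Tap1 at 24 months, with 39, 54, 26 and 31 FPKM in males and 31, 23 and 15 FPKM in females (0.69 ± 0.29, adjusted p = 0.321).

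The change between 3 and 24 months was then compared between the sexes. No member differed by limma, against 0.0177% of all genes, and 1 did at an unadjusted p under 0.05 with the fold limit, as did 398 of all 5647 genes. That was Tap1, with a difference between the 2 changes of 1.03 ± 0.40 on the log2 scale (95% confidence interval 0.22 to 1.84, unadjusted p = 0.0142, adjusted p = 0.495). Psmb8, called at 24 months in females and not in males, had a difference of -0.26 ± 0.22 (95% confidence interval -0.71 to 0.20, adjusted p = 0.802). The heavy chain genes H2-D1, H2-K1 and H2-Q7 had differences of -0.21 ± 0.24, 0.11 ± 0.22 and 0.08 ± 0.46. The calls that were made in 1 sex alone are not shown to differ between the sexes.

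**Figure D2:**
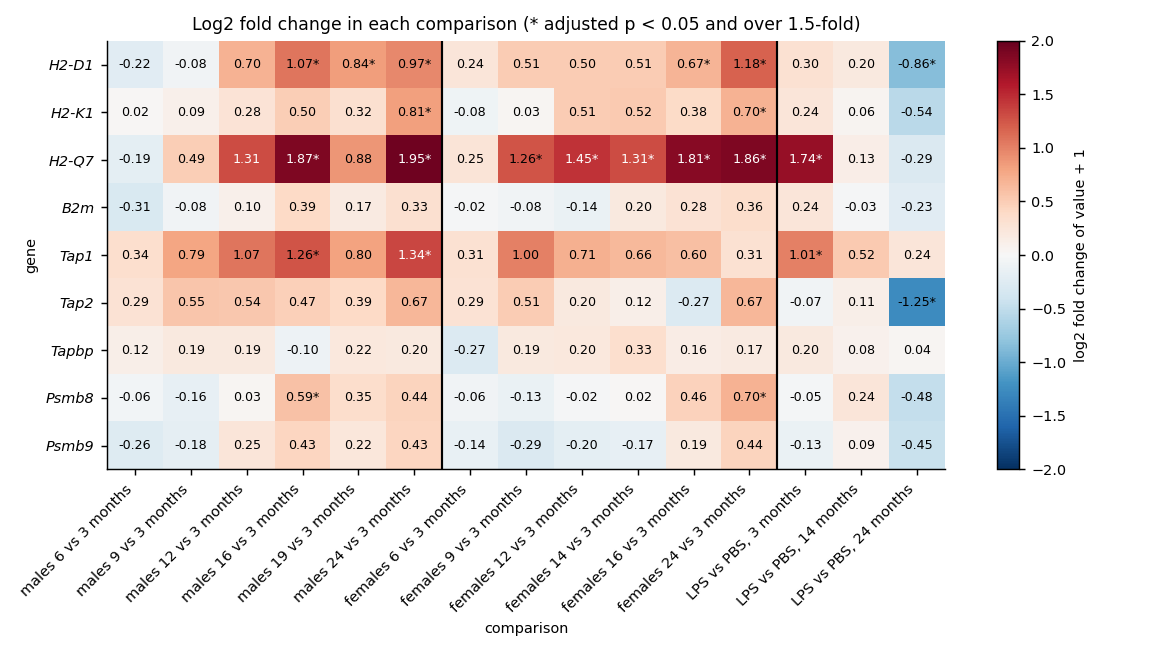
Heat map of log2 fold changes on the log2(value + 1) scale for the 9 members (rows) in 15 comparisons (columns: each age against 3 months in males and in females, and LPS against PBS at 3, 14 and 24 months), with an asterisk where the adjusted p was under 0.05 and the fold over 1.5. Asterisks fill the H2-Q7 row from 9 months on in females and all those of males sit at 16 months or later, and Tap2 and H2-D1 are the cells marked as lower under LPS at 24 months.

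Few members passed 2 h after LPS. At 3 months H2-Q7 and Tap1 rose and no member fell, 2 of 9 against 6.16% of all genes called higher. H2-Q7 had 13, 23 and 25 FPKM in LPS females, against 5, 7, 4 and 5 FPKM in PBS females (1.74 ± 0.33, limma adjusted p = 0.00084). Tap1 had 32, 36 and 42 FPKM in LPS females, against 16, 17, 16 and 22 FPKM in PBS females (1.01 ± 0.25, adjusted p = 0.00852). Both pairs of groups were fully apart. As given for ageing females, H2-Q7 was kept in the table only through groups where it was high. Without LPS replicate 3, Tap1 no longer passed (0.91, adjusted p = 0.056).

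The other members at 3 months moved little under LPS. H2-D1 had 697, 703 and 936 FPKM in LPS females, against 708, 519, 639 and 646 FPKM in PBS females (0.30 ± 0.21, limma adjusted p = 0.36). B2m had 4041, 4095 and 4291 FPKM in LPS females, against 3202, 3520, 3531 and 3845 FPKM in PBS females, which did not overlap but did not pass (0.24 ± 0.19, adjusted p = 0.439). H2-K1 and Tapbp were at 0.24 ± 0.15 and 0.20 ± 0.17. Tap2, Psmb8 and Psmb9 were at -0.07 ± 0.26, -0.05 ± 0.20 and -0.13 ± 0.25, and the signs of Tap2 and Psmb8 turned under both rescalings of the libraries. The ratio of Tap1 to Tap2, the paired subunits, was 1.14 ± 0.30 in LPS females and 0.53 ± 0.14 in PBS females, without overlap (ranges 0.842 to 1.44 and 0.348 to 0.667).

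At 14 months no member passed in either direction by limma or at an unadjusted p with the fold limit, against 1.4% of all genes called higher and 0.407% called lower. Tap1 came closest, with 47, 34, 42, 38 and 45 FPKM in LPS females, against 37, 21, 19, 29 and 42 FPKM in PBS females (0.52 ± 0.21, adjusted p = 0.203). The groups overlapped. H2-Q7 had 12, 16, 14, 17 and 21 FPKM in LPS females, against 22, 10, 12, 17 and 13 FPKM in PBS females (0.13 ± 0.27, adjusted p = 0.858). Psmb9 was at 0.09, and at -0.012 without the 3 libraries that stood apart. The PBS females of this age already stood well above those of 3 months for H2-Q7, as described for ageing.

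At 24 months Tap2 and H2-D1 fell under LPS and no member rose, 2 of 9 against 5.44% of all genes called lower and 4.27% called higher. That split of all genes, 241 higher and 307 lower, turned to 416 and 106 when libraries were scaled to the same total and to 366 and 145 with median ratios. Tap2 had 27, 30 and 14 FPKM in LPS females, against 65, 46 and 56 FPKM in PBS females (-1.25 ± 0.28, limma adjusted p = 0.00742). H2-D1 had 963, 955 and 517 FPKM in LPS females, against 1605, 1499 and 1181 FPKM in PBS females (-0.86 ± 0.22, adjusted p = 0.0171). In both genes every LPS female lay below every PBS female, and LPS replicate 3 was the lowest. Without LPS replicate 3, or without PBS replicate 1 or 2, H2-D1 no longer passed (-0.56, -0.77 and -0.82), whereas Tap2 passed in all 23 fits that left out 1 library (adjusted p from 0.00456 to 0.0409). With only the 2 groups compared in the fit, H2-D1 had an adjusted p of 0.0858.

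H2-K1 had 523, 619 and 351 FPKM in LPS females of 24 months, against 750, 717 and 647 FPKM in PBS females, with an adjusted p of 0.0365 by limma and a fold under the limit (-0.54 ± 0.16). Without the 3 libraries that stood apart it passed (-0.77, adjusted p = 0.0126). Psmb8 had 196, 229 and 145 FPKM in LPS females, against 253, 287 and 243 FPKM in PBS females, again without overlap, and did not pass (-0.48 ± 0.21, adjusted p = 0.135). H2-Q7, B2m and Psmb9 overlapped, at -0.29 ± 0.35, -0.23 ± 0.20 and -0.45 ± 0.26. Tap1 and Tapbp were at 0.24 ± 0.27 and 0.04 ± 0.18, and without those 3 libraries both signs turned (-0.019 and -0.038). The ratio of Tap1 to Tap2 was 1.2 ± 0.32 in LPS females and 0.41 ± 0.13 in PBS females (ranges 0.867 to 1.5 and 0.268 to 0.5). The median over the members was -0.45, against -0.15 over all genes.

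**Figure D3:**
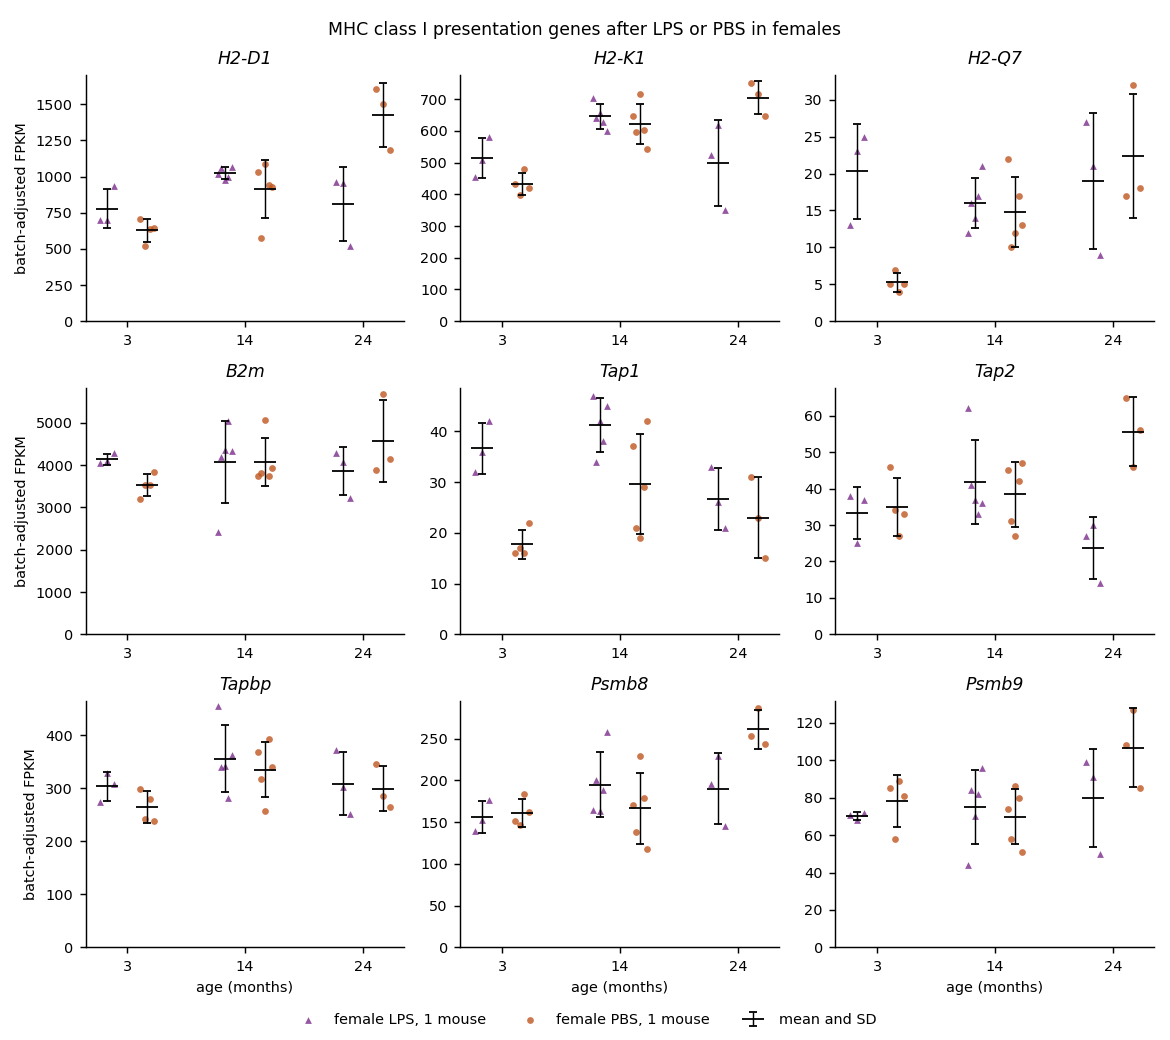
FPKM of the 9 members in LPS females (left of each pair) and PBS females (right) at 3, 14 and 24 months, 1 point per mouse, with the mean and SD as bars and linear axes. At 3 months the LPS points of H2-Q7 (13 to 25) and Tap1 (32 to 42) lie above all PBS points (4 to 7 and 16 to 22), and at 24 months those of Tap2 (14 to 30) and H2-D1 (517 to 963) lie below them (46 to 65 and 1181 to 1605).

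The LPS response itself was compared between ages, using the same PBS females as above. Between 14 and 3 months no member differed by limma, against 0.301% of all genes. H2-Q7 was nearest, with a difference of -1.61 ± 0.42 at 14 months (unadjusted p = 0.000824, adjusted p = 0.116). Between 24 and 3 months no gene of the table passed, 0% of all genes, and 5 members passed at an unadjusted p under 0.05 with the fold limit, as did 576 genes in all. These were H2-Q7 (-2.03 ± 0.48, adjusted p = 0.0684), H2-D1 (-1.16 ± 0.30, adjusted p = 0.117), H2-K1 (-0.78 ± 0.22, adjusted p = 0.167), Tap2 (-1.19 ± 0.38, adjusted p = 0.21) and Tap1 (-0.77 ± 0.36, adjusted p = 0.423). All 9 members had a negative difference. A different LPS response by age was therefore not shown for any member after adjustment.

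Set side by side without PBS controls, LPS-treated females of 24 and 3 months were not shown to differ. No member passed by limma or at an unadjusted p with the fold limit, against 0.0354% of all genes. H2-D1 had 963, 955 and 517 FPKM at 24 months and 697, 703 and 936 FPKM at 3 months under LPS (0.02 ± 0.22, 95% confidence interval -0.43 to 0.47). H2-Q7 had 27, 21 and 9 FPKM at 24 months and 13, 23 and 25 FPKM at 3 months (-0.17 ± 0.35, 95% confidence interval -0.89 to 0.55). H2-K1 had a difference of -0.08 ± 0.16 (95% confidence interval -0.41 to 0.25). Other members lay further apart in their means. At 24 and 3 months Tap1 averaged 26.7 ± 6.03 and 36.7 ± 5.03 FPKM, Tap2 23.7 ± 8.50 and 33.3 ± 7.23 FPKM and Psmb8 190 ± 42.3 and 156 ± 18.7 FPKM (SD, n = 3 each). With so few mice, the lack of a call does not show the groups to be alike.

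Among interferon response genes LPS gave many calls at 3 months, with 20 of 24 higher and none lower, a median of 1.3 against -0.14 over all genes. Cxcl10, a chemokine that draws T cells, was at 52.3 ± 8.08 FPKM in LPS females and 4.75 ± 0.50 FPKM in PBS females (3.21 ± 0.39, limma adjusted p = 1.0e-05). The next were Ifit1, Ifit2, Isg15, Ifit3 and Usp18, at 2.56, 2.26, 2.12, 1.98 and 1.96. At 14 months 3 of 24 passed (Cxcl10, Irf7 and Gbp7, at 1.41, 1.16 and 0.93), and at 24 months 4 (Cxcl10, Ifit1, Ifit2 and Gbp7, at 2.19, 1.71, 1.08 and 1.00). Of the other peptide supply genes at 3 months, Irf1 and Tpp2, a cytosolic peptidase, rose to 65.0 ± 5.57 and 30.3 ± 1.53 FPKM in LPS females, against 36.3 ± 3.95 and 16.8 ± 1.50 FPKM in PBS females (adjusted p = 0.0118 and 0.00387), and Tpp2 also rose at 24 months (0.60, adjusted p = 0.0498). Of the other class I-like chains, Fcgrt, the heavy chain of the neonatal Fc receptor, fell at 24 months to 98.3 ± 20.6 FPKM in LPS females, against 155 ± 40.6 FPKM in PBS females (-0.63 ± 0.19, adjusted p = 0.0393).

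Markers of other cells moved with LPS too. The 4 T and NK cell markers summed to 173 to 278 FPKM in LPS females of 3 months and 48 to 57 FPKM in PBS females, most of it from Ccl5, a chemokine that macrophages also make, at 188 ± 45.8 and 20.5 ± 2.65 FPKM. Ms4a4b was also called higher, at 14.0 ± 2.65 FPKM in LPS females and 6.0 ± 3.37 FPKM in PBS females, with an overlap (1.19, limma adjusted p = 0.0427). Cd3g was at 3.67 ± 4.04 and 6.0 ± 2.16 FPKM in those groups. At 24 months they summed to 75 to 250 FPKM in LPS females and 249 to 376 FPKM in PBS females, with Nkg7 and Ms4a4b lower and Cd3g at 11.3 ± 4.73 and 40.3 ± 15.9 FPKM. Neutrophil markers summed to 2011 to 3617 FPKM in LPS females of 3 months and 6853 to 18512 FPKM in PBS females, with 9 of 12 lower, and to 3932 to 15938 FPKM in LPS females of 24 months and 3142 to 8322 FPKM in PBS females, with 3 higher. MHC class II genes summed to 6714 to 10301 FPKM in LPS females of 24 months and 10301 to 15935 FPKM in PBS females, with 3 of 6 lower. The microglia markers summed to 18203 to 21804 FPKM in LPS females of 3 months and 24857 to 26494 FPKM in PBS females, with 4 of 10 lower. Beside these counts of neutrophil and microglia markers, 287 of all 5647 genes were called lower under LPS at 3 months. That number was 144 with libraries scaled to the same total and 145 with median ratios. The 2 oligodendrocyte markers summed to 39 to 46 FPKM in LPS females of 24 months and 56 to 71 FPKM in PBS females, without overlap and beside the fall of Tap2, though neither gene was called. The part of these cells in the class I values under LPS was not tested.

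Across the 53 PBS libraries the members fell into looser and tighter pairs, given here as Pearson r of the log2 values over libraries that share ages and sexes. Psmb8 and Psmb9 were closest (0.82), followed by H2-D1 and H2-Q7 (0.80), H2-D1 and H2-K1 (0.73), H2-K1 and H2-Q7 (0.73) and B2m and Psmb8 (0.73). Neighbours on the chromosome were not always close: Tap1 had an r of 0.15 with Psmb9, whose promoter window overlaps its own, of 0.09 with Psmb8 and of 0.35 with its partner Tap2. B2m and Tapbp were the lowest pair (-0.24).

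**Figure D4:**
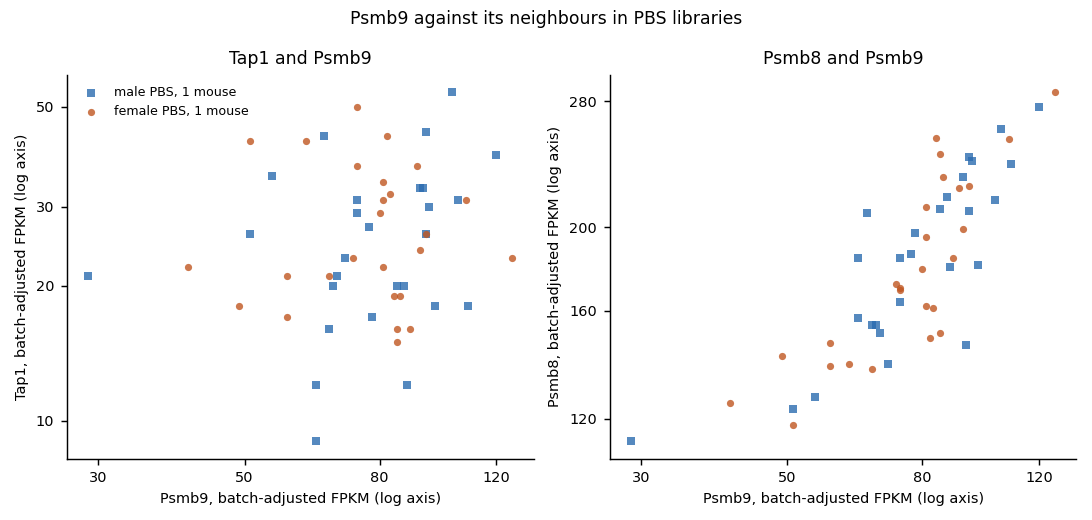
FPKM on log axes in the 53 PBS libraries, 1 point per library, of Tap1 against Psmb9 (left) and Psmb8 against Psmb9 (right). The points of the head-to-head pair Tap1 and Psmb9 scatter widely (r = 0.15), while those of Psmb8 and Psmb9 follow a band (r = 0.82).

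Each member's most alike genes outside the 9 differed by role. H2-D1 was most like Cst7 (0.87), Spp1 (0.86) and Pkm (0.85), and H2-K1 most like Spp1 (0.77), Cst7 (0.76) and Ms4a4b (0.75). H2-Q7 was most like Ms4a4b (0.77), Spp1 (0.77) and H2-Eb1 (0.76). B2m was most like Prdx1 (0.81), Rpl13 (0.80) and Ifi27l2a (0.80), Psmb8 like Psme2 (0.82), Cox4i1 (0.82) and Rps14 (0.81), and Psmb9 like Txn1 (0.76), Prdx2 (0.74) and Cox4i1 (0.74). Tap1 was most like Shisa5 (0.77), Srebf2 (0.74) and Plekho2 (0.74), Tap2 like Khnyn (0.69) and Fastk (0.67), and Tapbp like Ogdh (0.74), Emc1 (0.66) and Dock2 (0.65). The mean of all 9 was most like the class II genes H2-Eb1 (0.87) and H2-Aa (0.86) and like Spp1 (0.83). Each r is over 53 libraries and describes likeness of pattern alone.

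**Figure D5:**
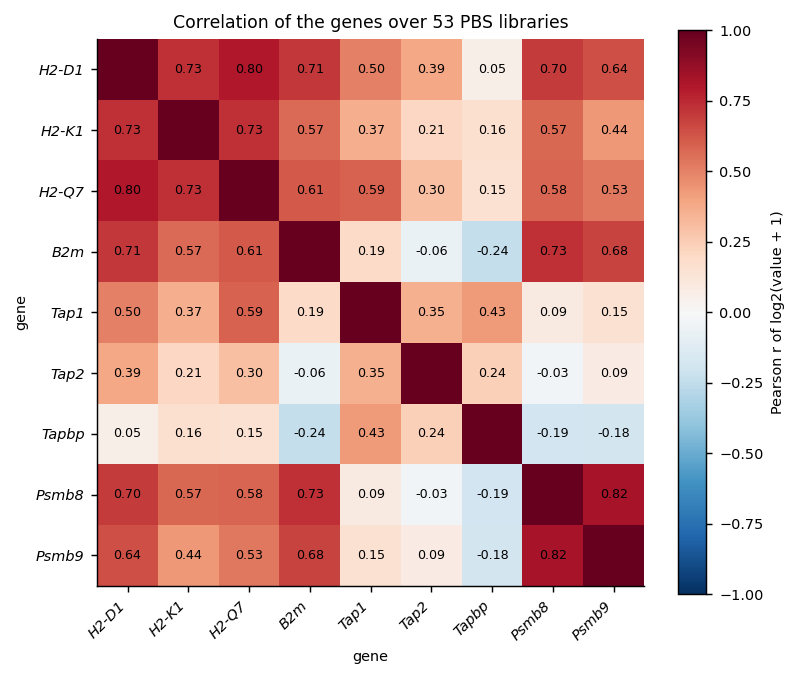
Pearson r of log2(value + 1) between each pair of the 9 members over the 53 PBS libraries, rows and columns in the order of their roles. The heavy chain genes form a block of 0.73 to 0.80, Psmb8 and Psmb9 a pair at 0.82, and Tapbp has values near or under 0 with several members, down to -0.24 with B2m.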

How the data were processed

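Microglia were sorted per mouse and amplified oligo-dT cDNA was sequenced. Per the labels and the study's methods, reads were cleaned with SOAPnuke, mapped with HISAT2 2.0.4 (mm10) and Bowtie2 2.2.5, and quantified with RSEM 1.2.12. The authors then applied ComBat_seq and removed genes of low average FPKM. The lowest gene mean in the table is 10. The deposited values are batch-adjusted FPKM that the authors rounded to whole numbers, except 297 values, and are treated here as a score, not as counts. The sources used here name no batches, and no within-batch value could be had. Groups came from the sample labels. The p-values rest on the spread between mice within groups, estimated over all groups of a fit. That spread is what the authors' batch adjustment left. The tests do not take the adjustment into account, so p-values may be too small. Whether batches went with age, sex or LPS is unknown. Sexes, ages and LPS were tested with limma 3.58.1 (R 4.3.3, trend) on log2(value + 1), in separate fits for female PBS, male PBS, the 12 PBS groups of shared ages and the 6 LPS and control groups. Genes were called at a fold over 1.5 with an adjusted p under 0.05. The scripts were tested on simulated data. Alternatives were pseudocounts of 0.5 and 5, a mean of at least 50, 2 rescalings, robust and untrended fits, a replicate block, unadjusted p, fits of only the groups compared and leaving out libraries. Every member was tested in every comparison, but not every member was named in each. Only some were named between the sexes, for LPS at the middle age and for the LPS response between ages. The same holds for the LPS-treated females set side by side. Members named there were picked after their values were seen. Of the other pathway and interferon lists, at most 6 called genes per comparison were named by size of change, and of the marker lists counts and sums were given, with single markers shown after their values were seen. The members and lists were chosen with earlier results of these data known. Promoter windows are RefSeq (GRCm38.p6), gene positions GENCODE for GRCm38, and pandas 2.3.3 and matplotlib 3.10.9 made tables and figures.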

Additional observations from a re-analysis of the deposited data

Results flagged for a closer look

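In 11 groups of 4 to 10 mice, 99 pairs of member and group were screened for a single mouse far from the rest of its group, where chance alone gives about 1 in 20, and 9 were found. Of these, 4 were in Tap2: female PBS replicate 1 at 12 months had 66 FPKM (the others 30 to 35), male PBS replicate 2 at 16 months 24 FPKM (40 to 41), male PBS replicate 5 at 19 months 24 FPKM (35 to 39) and female LPS replicate 1 at 14 months 62 FPKM (33 to 41). Male PBS replicate 2 at 3 months was high in both immunoproteasome genes, with 180 FPKM of Psmb8 (154 to 157) and 88 FPKM of Psmb9 (64 to 68). H2-K1 had 374 FPKM in female PBS replicate 2 at 16 months (590 to 671). B2m had 5073 FPKM in female PBS replicate 3 at 14 months (3744 to 3940). Tap1 had 22 FPKM in female PBS replicate 4 at 3 months (16 to 17).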

How the results depend on the processing

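Counts of members called, of those in the report, moved as follows. With a mean of at least 50 required, which by construction drops H2-Q7, Tap1 and Tap2, they were 4 for females at each age, 3 for males across ages, 5 for males at each age, 2 for males at 24 against 3 months, 0 for LPS at 3 months and 1 for LPS at 24 months. With median ratios, 14 tests passed for females at each age, and with equal totals 3 members passed on the line in males. With only the groups compared in the fit, 1 member passed for LPS at 24 months. In libraries without values between 0 and 1, which could be fitted only for males at 24 against 3 months and on the line, 1 and 0 members passed. At an unadjusted p, 14 tests passed for females and 16 for males at each age, 2 between the sexes at the same age, 1 for the sex difference of the change (Tap1), 1 for the LPS response at 14 against 3 months (H2-Q7) and 5 at 24 against 3 months. Between the sexes at the same age, 1 test (H2-D1 at 9 months) passed with a pseudocount of 0.5, the mean of at least 50, either rescaling, a robust fit or without the 3 libraries with over 20 values between 0 and 1, an alternative chosen after seeing the data. Leaving out 1 library gave 6 to 11 for females at each age, 2 to 4 for females at 24 against 3 months (2, H2-Q7 and H2-D1, without replicate 1, 2 or 4 at 3 months or replicate 1 or 2 at 24 months), 0 to 1 between the sexes, 1 to 2 for LPS at 3 months, 1 to 3 for LPS at 24 months (1, Tap2, without PBS replicate 1 or 2 or LPS replicate 3, and 3, with H2-K1, without PBS replicate 3 or LPS replicate 2), and 0 to 1 for the LPS response at 14 and at 24 against 3 months (H2-Q7, without LPS replicate 3 and 1 of 24 months). Log2 fold changes that turned sign, none of them called, were, for LPS at 3 months, Psmb8 (0.053 with equal totals, 0.060 with median ratios) and Tap2 (0.031 and 0.037), and, without the 3 libraries, Psmb9 at 14 months (-0.012) and Tap1 and Tapbp at 24 months (-0.019 and -0.038). Leaving out 1 library, the ranges that crossed 0 were Tap2 -0.18 to 0.12 and Psmb8 -0.14 to 0.033 at 3 months, B2m -0.12 to 0.15, Tap2 -0.034 to 0.19, Tapbp -0.0077 to 0.16 and Psmb9 -0.018 to 0.26 at 14 months, and H2-Q7 -0.60 to 0.15, Tap1 -0.025 to 0.47 and Tapbp -0.10 to 0.18 at 24 months. Of the other single-gene values, 560 under the alternatives and 1065 with 1 library left out kept their direction and their side of the threshold, 7 and 15 lost the call and 5 and 2 gained one. The cause of these moves was not tested. The replicate numbers do not pair the mice (median correlation of same-numbered deviations 4.26e-05 in females, -0.00444 in males, 0.00218 over both sexes and 0.0139 with LPS). With the replicate block the counts were 5 for females across ages, 8 for females at each age, 3 for females at 24 against 3 months (Psmb8 at an adjusted p of 0.0508), 5, 9, 4 and 6 for males across ages, at each age, at 24 against 3 months and on the line, and 2, 0 and 2 for LPS at 3, 14 and 24 months. The split of all genes also moved with equal totals, to 61 higher and 38 lower (88 and 30 in the report's fit) for females at 24 against 3 months, 148 and 107 (184 and 58) on the line in females, 238 and 193 (374 and 49) on the line in males, 430 and 144 (348 and 287) for LPS at 3 months and 46 and 34 (79 and 23) for LPS at 14 months. The depth in reads is unknown, which limits H2-Q7 most, whose values in young mice are few whole units.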

Other observations

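Ratios between paired members differed in places. In females the ratio of Tap1 to Tap2 was 0.41 ± 0.13 at 24 months (SD, n = 3, range 0.268 to 0.5) and 0.97 ± 0.10 at 16 months (n = 5, range 0.864 to 1.12), so no mouse of the older group reached the younger one. In males it was 0.92 ± 0.31 at 24 months and 0.98 ± 0.23 at 16 months (n = 4 each). The ratio of H2-D1 to H2-K1 was 1.25 ± 0.10 in males of 9 months and 2.02 ± 0.27 in females of that age (n = 4 and 3, ranges 1.16 to 1.38 and 1.74 to 2.28). At 24 months it was 1.57 ± 0.15 in males and 2.02 ± 0.17 in females, ranges 1.41 to 1.71 and 1.83 to 2.14. These ratios were picked after their values were seen and were not tested.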
